A study of Drosophila melanogaster with 6 samples.

Results

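The bithorax complex of Drosophila melanogaster carries the Hox genes Ubx, abd-A and Abd-B. It was examined here as the stretch of chromosome arm 3R from 12480000 to 12810000 (dm3 assembly, positions counted from 1), about 330 kb or 1.18% of the arm up to its last peak. All peaks of Cmi, also called Lpt, with at least 1 bp in this stretch were taken, which gave 85 of the 37144 peaks in 4 lists. Of these, 65 came from the embryo list, 13 from white prepupae, 4 from larvae at the wandering stage (the third instar) and 3 from S2 cells, a cell line of embryonic origin.

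Cmi was precipitated with an antiserum from formaldehyde-fixed chromatin of S2 cells, whole larvae and whole prepupae, with 1 ChIP and 1 input library for each. The labels give the genotype Y cn bw sp to all 6 libraries, S2 cells included, and no treatment or other allele separates the groups. The embryo list comes from data published earlier and has no sample of its own here, and the labels give no age for it. There are no replicates, the lists hold no read counts, and depth is unknown, so a difference in binding and one in library or peak calling cannot be told apart. Whole animals mix all segments and tissues, and binding in fewer cells cannot be told apart from weaker binding in each cell. The lists hold no expression values, so the cell line and stages could not be checked against marker genes.

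Cmi belongs to the MLR complex, which contains the methyltransferase Trr and places the monomethyl mark of enhancers on histone H3. The bithorax genes give the posterior thorax and the abdomen their segment identities: Ubx acts in the posterior thorax and the first part of the abdomen, abd-A in the middle of the abdomen and Abd-B at its end. Their expression is set by long regulatory domains between and beside the genes, laid out in the order of the segments they serve, and is kept off elsewhere by Polycomb group proteins and kept on by trithorax group proteins. In the RefSeq annotation (Release 6) the order with rising coordinate is Ubx, abd-A, Abd-B. It lists 16 genes from the first to the last of them, of which 6 code for proteins and others are non-coding RNAs such as bxd and iab-8. That annotation is on another assembly than the peaks, so peaks were placed by position and not assigned to genes.

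Embryo peaks were dense and spread over the whole complex, whereas S2 cells, larvae and prepupae had few peaks there. In peaks per Mb, the embryo list had 197 in the complex against 138 on the rest of 3R, a ratio of 1.43. Prepupae had 39.4 against 76.2 (ratio 0.517), larvae 12.1 against 54.0 (0.225) and S2 cells 9.09 against 57.1 (0.159). There were 16.2 embryo peaks for each larval peak in the complex and 2.56 on the rest of the arm. For each S2 peak the numbers were 21.7 and 2.42, and for each prepupal peak 5 and 1.81. The complex held 1.68% of the embryo peaks of 3R (exact 95% interval 1.30 to 2.13), 0.615% of the prepupal peaks (0.328 to 1.05), 0.268% of the larval peaks (0.0731 to 0.685) and 0.190% of the S2 peaks (0.0392 to 0.555). These intervals cover counting error alone, and peaks of 1 locus are not independent of each other.

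**Figure D1:**
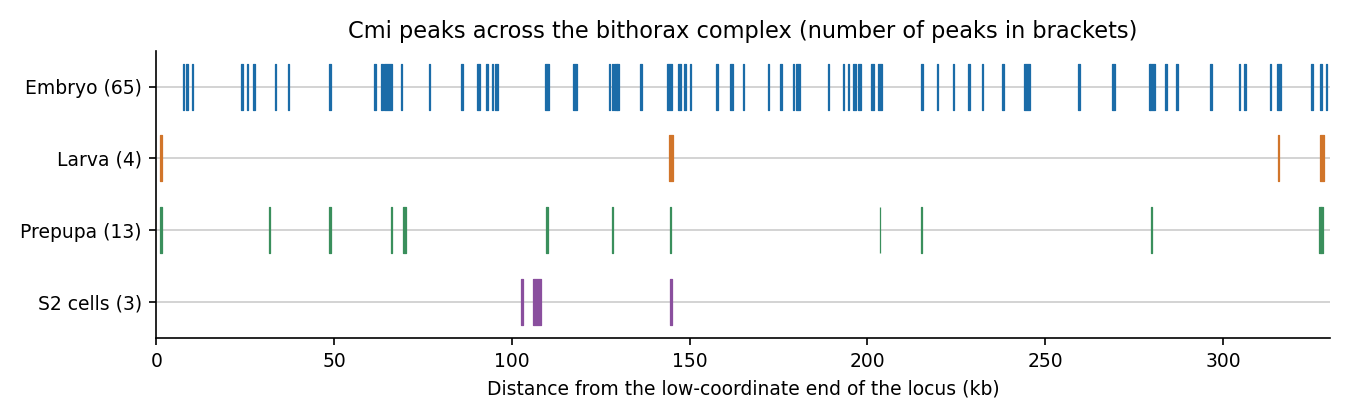
Peaks of each list (bars, drawn to scale but with a thin outline) against the distance in kb from the low-coordinate end of the bithorax complex, with the number of peaks in brackets. The 65 embryo peaks run along the whole stretch, the 13 prepupal peaks are scattered, and the 4 larval and 3 S2 peaks leave most of it empty.

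In covered sequence the embryo list was near its arm-wide level and the other lists were far under theirs. Embryo peaks covered 39415 bp, or 11.9% of the complex, against 12.2% of the rest of 3R. Prepupal peaks covered 5648 bp (1.71% against 5.78%), larval peaks 3326 bp (1.01% against 6.21%) and S2 peaks 3202 bp (0.970% against 7.44%). The embryo list thus had more peaks than usual for the arm and about the usual amount of covered sequence.

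Equally long windows tiled along 3R on both sides of the complex gave 82 windows for comparison. For the 65 embryo peaks, 15 windows (18.3%) had as many or more, with a median of 44.5 and a range of 5 to 101. By embryo base pairs 41 windows (50%) were at or above the complex. For the 4 larval peaks, 2 windows (2.44%) had as few or fewer, with a median of 17, and by base pairs 1 window (1.22%) was as low. S2 cells had 5 windows (6.1%) with 3 peaks or fewer, against a median of 16, and also 5 windows (6.1%) by base pairs. Prepupae were less extreme in number, with 18 windows (22%) at or below 13 peaks and a median of 23.5, but 7 windows (8.54%) were at or below the complex in base pairs. Low values in larvae and S2 cells were therefore shared by a few other windows each, and no window was as low as the complex in both of these lists at once. With only 2 and 5 such windows, a window in both would be rare even if the lists were unrelated, so this says little. The window from 7859986 to 8189986 came close, with 3 larval and 5 S2 peaks.

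**Figure D2:**
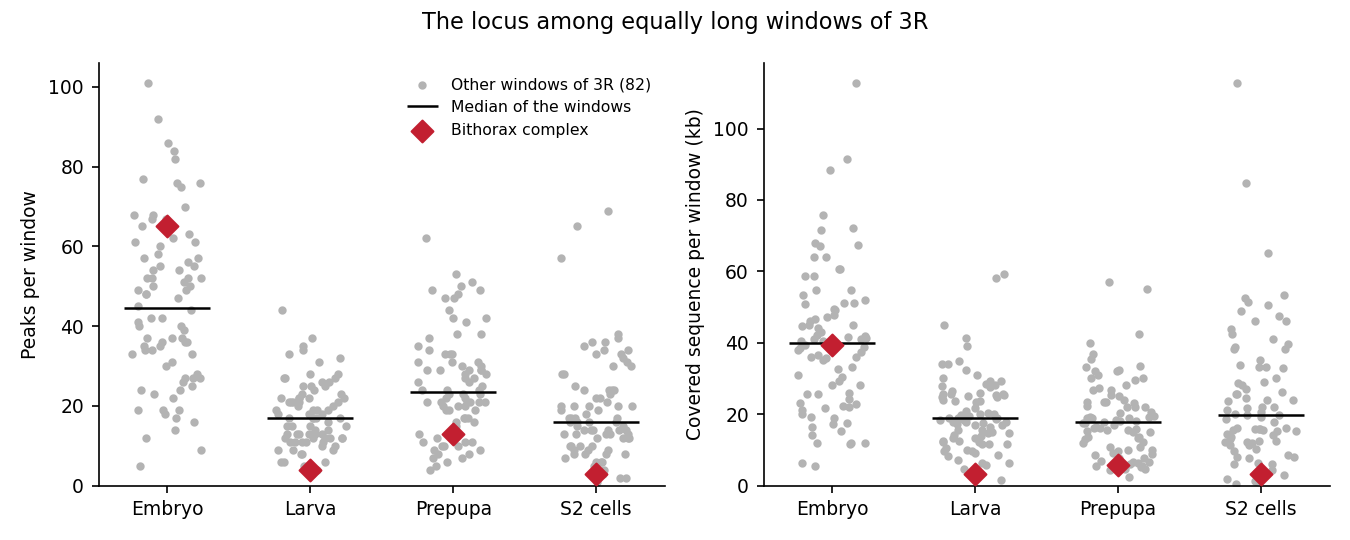
Peaks (left) and covered kb (right) per window for each list: grey points are the 82 other windows of 3R, bars their medians and diamonds the bithorax complex. The diamond lies above the median for embryo peaks (65 against 44.5), and below it for larvae (4 against 17), prepupae (13 against 23.5) and S2 cells (3 against 16).

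The complex differed from the 82 windows in the combination of lists. Embryo peaks made up 76.5% of its 85 peaks (exact 95% interval 66.0 to 85.0), where the windows had a median of 42.1% and a highest value of 65.2%. None of these windows reached the value of the complex. The 15 windows with at least 65 embryo peaks held between 9 and 44 larval peaks (median 27), 16 to 62 prepupal peaks (median 31) and 3 to 69 S2 peaks (median 16). Conversely, the 2 windows with 4 or fewer larval peaks had at most 27 embryo peaks. For S2 cells this did not hold: the 5 windows with 3 or fewer S2 peaks had up to 75 embryo peaks (median 34). The window with 75 embryo and 3 S2 peaks held 22 larval and 44 prepupal peaks. The window just below the complex had 68 embryo, 13 larval, 16 prepupal and 24 S2 peaks, with an embryo share of 56.2%, above the median of the windows. The one just above had 36, 19, 33 and 16 peaks and an embryo share of 34.6%. This measure was chosen after the peaks had been seen. With windows placed every 10 kb along 3R, 9 of 2692 reached the share of the complex, all overlapping each other between 13550001 and 13960001, with 33 to 38 embryo peaks each. Among 356 windows of the arms 2L, 2R, 3L, 3R and X, 5 reached it, with 1 to 26 embryo peaks.

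**Figure D3:**
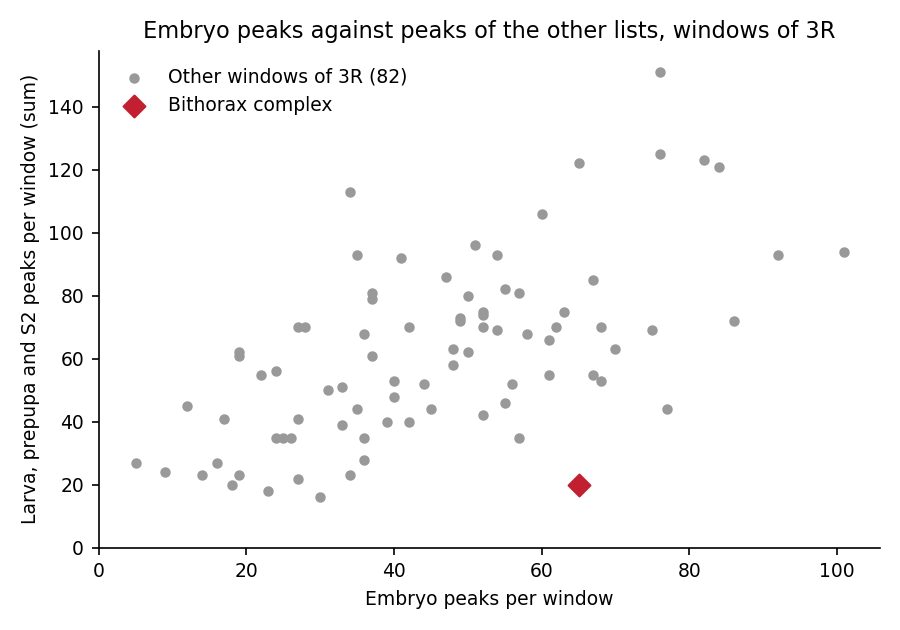
Embryo peaks per window (horizontal) against the sum of larval, prepupal and S2 peaks (vertical) for 82 windows of 3R (grey) and the bithorax complex (diamond). The complex, with 65 embryo and 20 other peaks, lies under the windows of like embryo count.

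Embryo peaks left only short stretches of the complex empty. Neighbouring embryo peaks were 52 to 13549 bp apart. The median of these gaps was 3209 bp, wider than the median of 1290 bp on the rest of 3R. Of the 33 bins of 10 kb in the complex, 32 had sequence covered by embryo peaks. The single bin without any started at 12530000. The 82 windows had 3 to 29 such empty bins, with a median of 16. The longest stretch without an embryo peak was 13.5 kb, from 12490347 to 12503895, followed by 13.4 kb from 12725764 to 12739209 and 13.2 kb from 12576185 to 12589391. In the windows the longest stretch ranged from 17.9 to 251 kb, with a median of 86.3 kb. The first 2 of these 3 stretches held no peak of any list, and the next such stretch, of 12.1 kb, ran from 12529258 to 12541324. Among only those embryo peaks wider than the list's median, 7 windows had as few empty bins as the complex and 9 had no longer stretch. These measures were also chosen after the peaks had been seen. Most windows, 67 of 82, held fewer embryo peaks than the complex. How far this sets the differences in empty bins and stretches was not tested. Divided into equal parts of about 110 kb in the direction of rising coordinate, the complex had 20, 26 and 19 embryo peaks, covering 11089, 16804 and 11522 bp. The most covered embryo bins began at 12540000 (3245 bp, 4 peaks), 12620000 (2882 bp, 3 peaks) and 12570000 (2548 bp, 4 peaks).

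Larval and S2 peaks left long stretches of the complex empty, and prepupal peaks left shorter ones. Larval peaks lay in 4 of the 33 bins, with 1, 1 and 2 peaks in the 3 parts. Stretches of 142.5 kb (12481726 to 12624262) and 170 kb (12625166 to 12795355) had no larval peak. Of the 1486 larval gaps elsewhere on 3R, 22 were longer than the second of these. In 15 of the 82 windows the longest stretch without a larval peak was longer, with a median of 111 kb over the windows. S2 peaks lay in 2 bins, with 2, 1 and 0 peaks in the parts. No S2 peak was called from 12624937 through the high-coordinate end of the complex to 12812346, a stretch of 187 kb. Elsewhere on the arm 17 of 1573 S2 gaps were longer. Inside the complex the stretch measured 185 kb. In 14 of the 82 windows the longest stretch without an S2 peak was longer than that, with a median of 127 kb over the windows. At the low end, no S2 peak lay between 12309097 and 12582630. From 12309097 to 12812346, or 503 kb, the S2 list thus had only the 3 peaks of the complex. Prepupal peaks covered part of 14 bins, with 6, 4 and 3 peaks in the parts and a longest empty stretch of 64.4 kb (12695398 to 12759815). In 63 of the 82 windows the longest stretch without a prepupal peak was longer, with a median of 98.0 kb over the windows. The complex had 19 bins without prepupal sequence, against a median of 21 in the windows. The 3 most covered prepupal bins began at 12800000 (943 bp), 12540000 (855 bp) and 12480000 (670 bp).

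**Figure D4:**
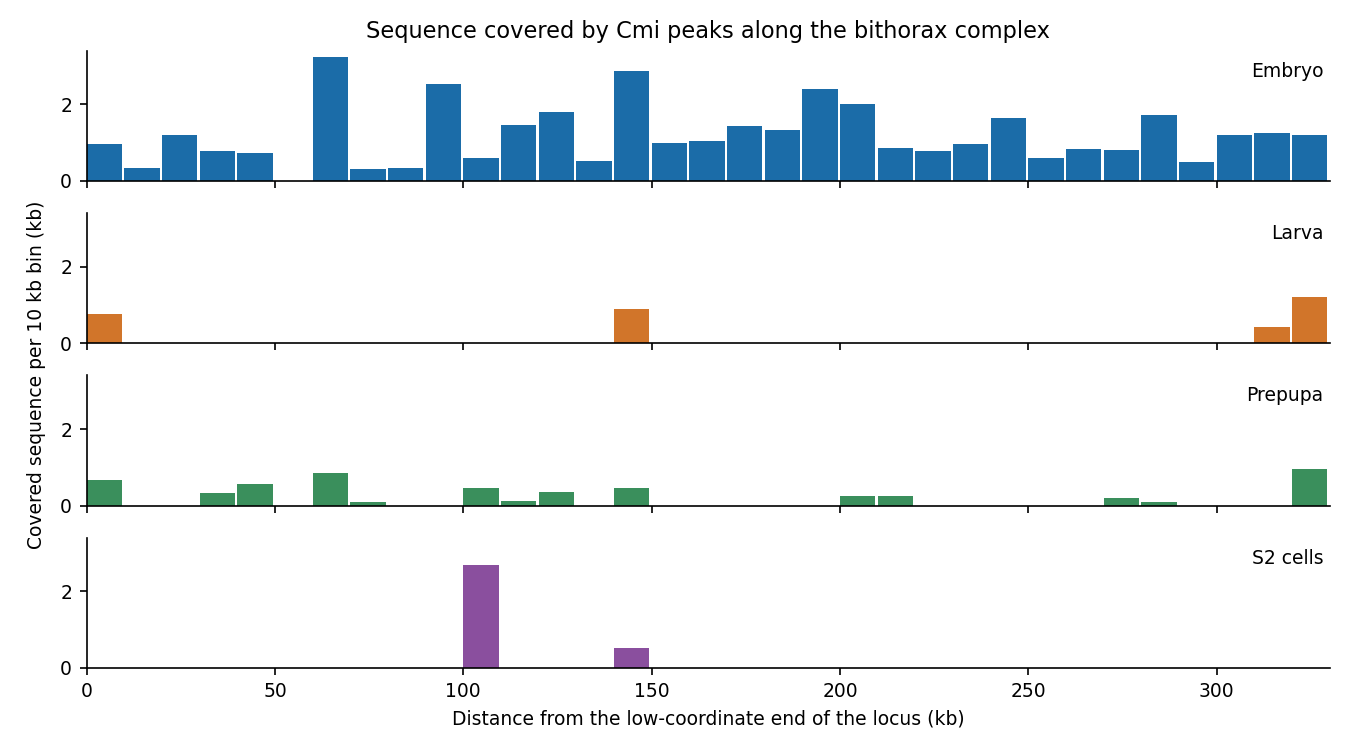
Covered sequence in kb per 10 kb bin against the distance in kb from the low-coordinate end of the bithorax complex, 1 panel per list on a common axis. Embryo peaks covered part of 32 of 33 bins, prepupal peaks 14, larval peaks 4 and S2 peaks 2.

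Wide peaks were scarce in the complex in embryos and prepupae. The median embryo width was 456 bp against 540 bp on the rest of 3R, and 7 of 65 peaks (10.8%) exceeded 1 kb against 25.5% elsewhere. In 80 of the 82 windows the share of embryo peaks over 1 kb was higher. Prepupal peaks ranged from 251 to 686 bp with a median of 465 bp (rest of 3R 501.5 bp). In 25 of the 82 windows the prepupal median was smaller still. None of the 13 exceeded 1 kb, against 23.2% elsewhere, and 1 of the 82 windows also had none. In each of the 82 windows the widest prepupal peak was wider than 686 bp. However, 64 windows held more prepupal peaks, and the widest of more peaks tends to be wider. The 4 larval peaks measured 435, 777, 903 and 1211 bp, around their median on the rest of the arm (770 bp). The widest larval peak was wider than 1211 bp in 81 of the 82 windows, of which 80 held more larval peaks than the complex. The 3 S2 peaks measured 513, 551 and 2138 bp, against a median of 734 bp elsewhere. The smallest peak differed between the lists, from 220 bp in prepupae to 340 bp in S2 cells. Among peaks of at least 340 bp the complex held 53 embryo, 8 prepupal, 4 larval and 3 S2 peaks.

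**Figure D5:**
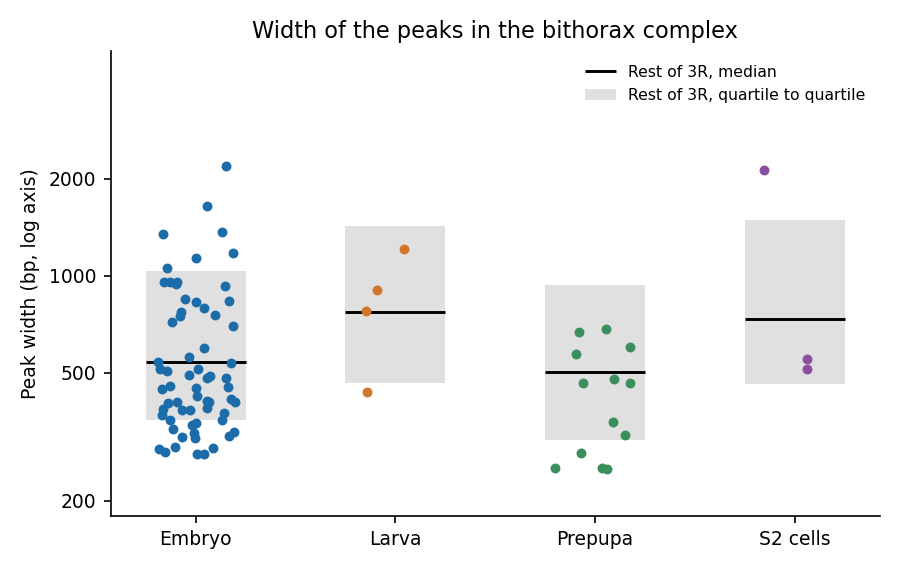
Width in bp (log axis) of each peak in the bithorax complex (coloured points) with the median (line) and the range between the quartiles (grey box) of the peaks on the rest of 3R. The highest embryo peak is 2192 bp and the highest prepupal peak 686 bp, whereas medians elsewhere were 540 and 501.5 bp.

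Most embryo peaks of the complex had no counterpart. Of the 65, 10 overlapped a peak of any other list (15.4%, exact 95% interval 7.63 to 26.5), where 44.6% did so on the rest of 3R. By list, 9 overlapped a prepupal peak (13.8%, 6.53 to 24.7, background 26.6%), 3 a larval peak (4.62%, 0.962 to 12.9, background 29.8%) and 1 an S2 peak (1.54%, 0.0389 to 8.28, background 28.8%). The complex held only 13 prepupal, 4 larval and 3 S2 peaks, so few embryo peaks could be shared. The low shares given here are thus not a result separate from those peak numbers. Because wide peaks are more often shared, the embryo peaks were also divided by the quartiles of embryo width on 3R, a division chosen after the peaks had been seen. Below 357 bp 0 of 15 were shared with any other list (26.3% elsewhere), from 357 to below 537 bp 2 of 25 (28.6% elsewhere), from 537 to below 1015 bp 4 of 18 (46.6% elsewhere) and from 1015 bp on 4 of 7 (76.5% elsewhere). For larvae in the widest class it was 1 of 7 against 64.1%, and for prepupae 4 of 7 against 53.3%. Of the 10 widest embryo peaks 5 were in another list, and of the 55 narrower ones also 5.

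In the other direction, the exact intervals for prepupal and larval peaks at embryo peaks contained the shares on the rest of 3R. Of the 13 prepupal peaks 10 overlapped an embryo peak (76.9%, exact 95% interval 46.2 to 95.0), against 56.9% on the rest of 3R, which lies inside that interval, and 7 of them lay wholly inside it. By base pairs 56.6% of the prepupal sequence in the complex was in embryo peaks, against 54.0% elsewhere. With equal numbers of widest peaks from every list, 3 of 7 prepupal peaks (42.9%) overlapped an embryo peak. Midpoints of overlapping embryo and prepupal peaks were 6.5 to 858.5 bp apart. Among the 13 prepupal peaks, 4 overlapped a larval peak (30.8%, 9.09 to 61.4), against 60.6% elsewhere, which lies inside that interval. An S2 peak was met by 1 of the 13 (7.69%, 0.195 to 36.0), against 44.1%, which lies above that interval. The complex held only 4 larval and 3 S2 peaks, so few prepupal peaks could be shared with these lists. The low prepupal shares in larvae and S2 cells are thus not a result separate from those peak numbers. In all, 11 of the 13 were in some other list (84.6%, background 79%). Of the 4 larval peaks 3 were in the embryo list (background 71.2%), 3 in the prepupa list (67.7%), 1 in the S2 list (53.9%) and 4 in any other (94.1%). Of the 3 S2 peaks 1 overlapped the embryo list (62.5%), the larva list (49.6%) and the prepupa list (40.9%), and it was the same peak each time, so 1 of 3 was in any other list (73.3%). The exact intervals of these larval and S2 shares, on 4 and 3 peaks, all contained their backgrounds.

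Merging overlapping peaks of all lists gave 70 regions in the complex. Of these, 55 (78.6%, exact 95% interval 67.1 to 87.5) were found in the embryo alone, against 45.8% of 4600 regions on the rest of 3R. A further 7 (10%, 4.12 to 19.5) were shared by embryo and prepupa only, against 3.11%. That class leaves out regions with a larval or S2 peak, and such peaks were few in the complex. Of all embryo peaks there, 13.8% overlapped a prepupal peak, against 26.6% elsewhere. Of the prepupal peaks 76.9% overlapped an embryo peak, against 56.9%. Regions of 2 lists numbered 9, of 3 lists 1 and of 4 lists 1. The last made up 1.43% (0.0362 to 7.70) of the regions, where 8.98% elsewhere were in all 4. The complex held 65 embryo peaks but few of the other lists, and only 3 of S2 cells. The high shares of regions in the embryo alone or in embryo and prepupa only, and the low share in all 4 lists, are thus not separate from these peak numbers.

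The region found in all 4 lists ran from 12623718 to 12625165, 143.7 kb from the low-coordinate end. Its peaks were 1369 bp wide in embryos (12623718 to 12625086), 903 bp in larvae (12624263 to 12625165), 466 bp in prepupae (12624350 to 12624815) and 513 bp in S2 cells (12624424 to 12624936). The S2 peak lay inside both the embryo and the larval peak, with its midpoint 34 bp from the larval one. The larval peak was the only one between the stretches of 142.5 and 170 kb without any, and the S2 peak the only one that another list shared. The embryo peak was wider than 83.9% of all embryo peaks, the larval peak than 55.6% of all larval, the prepupal peak than 47.2% of all prepupal and the S2 peak than 31.5% of all S2 peaks.

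Larval and prepupal peaks met again at both ends. At the low end a larval peak of 777 bp (12480949 to 12481725) enclosed a prepupal peak of 670 bp (12480964 to 12481633), with no embryo or S2 peak. At the high end 2 prepupal peaks of 478 bp (12806922 to 12807399) and 465 bp (12807626 to 12808090) and an embryo peak of 407 bp (12807342 to 12807748) overlapped the widest larval peak (1211 bp, 12807126 to 12808336). These places are close to the chosen bounds, and 10 kb less on each side left 2 larval and 10 prepupal peaks. With 10 kb more on each side there were 7 larval, 19 prepupal and 6 S2 peaks, and S2 coverage was 2.69% in place of 0.970%. Just outside the bounds, the nearest peaks lay at 12479574 to 12479894 (embryo, 321 bp) on the low side and at 12810188 to 12810619 (larva, 432 bp), 12810485 to 12812834 (prepupa, 2350 bp) and 12812347 to 12812775 (S2, 429 bp) on the high side. The remaining larval peak (435 bp, 12795356 to 12795790) lay inside an embryo peak of 956 bp (12795271 to 12796226).

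The sites shared by embryo and prepupa alone included the widest embryo peak of the complex, 2192 bp from 12544065 to 12546256, which 93.5% of all embryo peaks do not reach. It held the narrowest prepupal peak of the complex, 251 bp from 12545894 to 12546144, and 10.9% of all prepupal peaks were narrower still. The embryo peak from 12759575 to 12760919 (1345 bp) likewise held a prepupal peak of 282 bp (12759816 to 12760097), and that from 12682917 to 12683974 (1058 bp) one of 253 bp (12683381 to 12683633). Widths were closer at 12608087 to 12608470, with 384 bp in embryos and 351 bp in prepupae, and at 12528523 to 12529257, with 721 and 573 bp. Between 12589392 and 12590335 the widths were 944 bp and 600 bp, and between 12694959 and 12695499 they were 541 bp and 253 bp.

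Peaks found in a single list were led by the embryo. Its widest without a counterpart measured 1648 bp (12724116 to 12725763) and 1176 bp (12659837 to 12661012). S2 cells alone had a pair of neighbouring peaks, of 551 bp (12582631 to 12583181) and 2138 bp (12586037 to 12588174). The second was the widest S2 peak of the complex, wider than 85.9% of all S2 peaks, and ended 1217 bp before an embryo peak. Both fell in a 13.2 kb stretch without embryo peaks (12576185 to 12589391). Prepupae alone had peaks of 686 bp (12549396 to 12550081), the widest of that list in the complex, and 320 bp (12511754 to 12512073), which were 371 and 1205 bp from the nearest embryo peak. Larvae had no peak of their own.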

How the data were processed

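The deposited files are peak lists from ChIP-seq with 3 columns (chromosome, peak start, peak end) and no score or other value per peak. The submitters' processing notes name BWA, MACS2 and the build dm3. Versions, peak threshold, use of inputs and pooling were not given in the sources used here. Start positions were raised by 1 for printing.

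The stretch, its gene names and the measures were chosen with earlier results of these data known. A peak was shared when at least 1 bp was common to a peak of another list. Windows were as long as the complex and tiled outward from it, without the partial windows at the arm's ends. In bins of 10 kb and equal parts, peaks were counted by their midpoints. Whether a bin was covered or empty was set by its covered base pairs. Intervals are exact Clopper-Pearson 95% intervals over peaks, regions or windows and cover counting error only. With 1 library per group no test between stages was possible, and none was made. Named peaks are those in all lists, the widest per list, the widest without a counterpart, the longest empty stretches and the most covered bins; others shared by 2 or 3 lists or next to the bounds are named in addition. The functions were tested on simulated peaks. Python 3.11.15, numpy 2.4.6, scipy 1.17.1, pandas 2.3.3 and matplotlib 3.10.9 were used.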

Additional observations from a re-analysis of the deposited data

How the results depend on the processing

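No paired analysis was possible because there is 1 library per group. Counts and covered sequence were called close within 1.5 times of the reported value, and shares within their exact interval. Median widths were called close between the quartiles of the peaks in the complex, which 4 of 4 met. Of 182 alternative values, 134 kept close to the reported one. Shared peaks gave 46 of these from 48 alternatives, many with intervals so wide, on 3 or 4 peaks, that a shift could hardly show. Peak counts moved in 10 of 28 and covered sequence in 8 of 16. The share of windows below the complex moved in 8 of 28 by peaks and 9 of 24 by base pairs. With wide peaks (above the median of their list) the complex held 24 embryo, 2 larval, 4 prepupal and 1 S2 peaks, and with equal numbers of widest peaks 21 embryo and 7 prepupal peaks; both leave fewer peaks by construction. A common smallest width left 8 prepupal peaks. Larval peaks numbered 2 with 10 kb less and 7 with 10 kb more on each side, where S2 cells had 6. Coverage was 7.08% (embryo), 0.641% (larva) and 0.766% (prepupa) with wide peaks, 6.57% (embryo) with equal numbers, 0.432% (larva) with 10 kb less, and 1.83% (larva), 2.78% (prepupa) and 2.69% (S2) with 10 kb more. The share of windows with fewer embryo peaks, 81.7%, became 56.1% with wide peaks, 68.3% with equal numbers and 96.3% with peaks closer than 500 bp joined. By embryo base pairs, 50% became 34.1% (wide), 36.6% (equal numbers) and 69.2% (10 kb more). In larvae 1.22% became 0% by peaks and by base pairs with 10 kb less. In prepupae 19.5% became 2.44% (wide), 11.0% (equal numbers), 11.4% (10 kb less) and 30.8% (10 kb more), and by base pairs 8.54% became 2.44% with wide peaks, 2.44% with equal numbers, 3.41% and 17.9%. In S2 cells the share by base pairs, 6.10%, became 16.7% with 10 kb more. The embryo share in S2 was 0% by the midpoint rule, and the prepupal share in embryos 42.9% with equal numbers. Embryo peaks made up 60.0% of the peaks with equal numbers. Windows at or above the embryo percentage of the complex numbered 9 when placed every 10 kb and 5 over 5 arms. Windows with as few embryo-free bins numbered 7 (wide), 9 (equal numbers), 3 (every 10 kb), 1 (5 arms), 1 (5 kb bins) and 5 (20 kb bins), and windows with no longer embryo-free stretch 9 (wide) and 6 (equal numbers). The embryo percentage, the windows at or above it, the embryo-free bins and stretches with all their alternatives, the common smallest width and the windows of 5 arms were chosen after seeing the data. The cause of these shifts was not tested where the construction does not give it. Depth, which is unknown, limits how far a missing peak can be read as missing binding.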
